A study of Homo sapiens with 6 samples.

Results

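Guanylate-binding proteins are large GTPases of the dynamin superfamily that interferon-gamma induces in many cell types. GBP1 binds lipopolysaccharide on bacteria that reach the cytosol and gathers other members of the family into a coat on them, where caspase-4 is activated. GBP1, GBP2 and GBP5 carry a C-terminal CaaX box to which a prenyl lipid is attached, whereas GBP3 and GBP4 lack one. Interferon-gamma acts on this family through the JAK-STAT pathway and the transcription factor IRF1, at GAS and ISRE elements of the promoters.

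The 5 genes GBP1, GBP2, GBP3, GBP4 and GBP5 were followed here. Their members were taken by platform gene symbol, which gave 6 probes of 47231, a pair for GBP1 and 1 for each of the others. The family was chosen with the knockdown against control values of these same arrays known, so its own changes are a description and carry no test. The study profiled SK-Hep1 cells, an established human line labelled as hepatic adenocarcinoma, with 1 bead array a sample. In 3 samples (siYAP1&TAZ) the cells had received siRNA against YAP1 and TAZ, co-activators that the Hippo kinases restrain, and in 3 samples (siCon) a control siRNA, named siLuc in the other label fields, each for 3 days. All groups share this 1 line, and no agent that stimulates interferon signalling is named in the labels. Whether replicates were separate cultures is not stated, so p-values rest on a spread between samples that could be technical. In bulk RNA, fewer cells of a type and less RNA per cell cannot be told apart.

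YAP1 mRNA was 5.32-fold lower and WWTR1 mRNA, which encodes TAZ, at least 2.34-fold lower in siYAP1&TAZ cells (adjusted p = 2.26e-08 and 6.53e-07, limma). Median bead intensity lay between 62.2 and 71.7 on the siYAP1&TAZ arrays and between 64.7 and 83.0 on the siCon arrays. Of the hepatocyte markers with a probe, 2 of 5 (ALB and SERPINA1) were above background on at least 3 arrays, and APOA1 and TTR were below it on all 6. SERPINA1 rose 2.83-fold (6.05e-07), ALB fell 1.40-fold (0.00466), and AFP was above background on no siYAP1&TAZ array and 2 siCon arrays. None of the 6 endothelial markers was above background on any array. Of the leukocyte markers, 5 of 7 (PTPRC, CD3D, CD3E, LYZ and NKG7) were below background on all 6 arrays, and of the tested pair CD14 rose 3.21-fold (adjusted p = 4.14e-07) and CD68 was at -0.05 (0.756), with 0.62 and 1.51 for its other probes. The summed intensity of the leukocyte list, most of it CD68, ran from 2813 to 3554 in siYAP1&TAZ cells and from 3734 to 4449 in siCon cells.

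The human GBP genes lie side by side on chromosome 1, in 381 kb of GRCh38.p14 between positions 89006680 and 89388160, in the order GBP3, GBP1, GBP2, GBP7, GBP4, GBP5 and GBP6. Start regions of 3 of the 5 members were in the RefSeq promoter table, each 300 bases from 250 before to 50 after the start of the gene. They are shown because each holds an ISRE-like match, whose position relative to the annotated start of the gene differs between them. Capitals mark matches to the letters GAAANNGAAA (ISRE-like), TTCNNNGAA (GAS-like) and TGANTCA (AP-1-like), each searched on both strands. The ISRE-like matches read as the reverse complement on these strands.
GBP1 (chr1:89065159-89065458, minus strand): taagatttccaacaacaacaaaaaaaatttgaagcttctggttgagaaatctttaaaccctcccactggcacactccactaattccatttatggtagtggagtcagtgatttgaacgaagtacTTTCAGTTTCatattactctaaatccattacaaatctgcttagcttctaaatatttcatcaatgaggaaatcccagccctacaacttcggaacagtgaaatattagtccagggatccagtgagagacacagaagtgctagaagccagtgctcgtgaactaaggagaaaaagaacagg
GBP3 (chr1:89022817-89023116, minus strand): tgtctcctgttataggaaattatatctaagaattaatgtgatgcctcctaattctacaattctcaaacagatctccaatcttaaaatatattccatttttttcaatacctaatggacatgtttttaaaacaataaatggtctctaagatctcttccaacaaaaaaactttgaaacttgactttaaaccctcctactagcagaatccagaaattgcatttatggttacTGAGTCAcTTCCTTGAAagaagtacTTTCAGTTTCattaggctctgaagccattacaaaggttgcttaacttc
GBP4 (chr1:89198893-89199192, minus strand): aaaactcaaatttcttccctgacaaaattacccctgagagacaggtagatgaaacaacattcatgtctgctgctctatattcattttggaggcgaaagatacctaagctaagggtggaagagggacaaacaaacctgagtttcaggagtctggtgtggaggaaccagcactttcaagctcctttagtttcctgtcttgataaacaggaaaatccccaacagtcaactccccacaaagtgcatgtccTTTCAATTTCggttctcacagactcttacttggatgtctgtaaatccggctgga

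All 3 windows held 1 ISRE-like match, at position -127 in GBP1, 3 in GBP3 and -4 in GBP4, counted from the first base of the gene, with no position 0. Such a match was present in 3.57% of the 35116 promoters of the table. The start regions of GBP6 and GBP7, family genes that are not among the members, were also searched and held none. The longest run that the GBP1 and GBP3 windows shared was 19 bases long and contained the match, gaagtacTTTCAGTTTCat, and it began at -134 in GBP1 and at -5 in GBP3. The longest run shared by GBP1 and GBP4 was 9 bases and by GBP3 and GBP4 8 bases, while GBP1 and GBP7 shared 13 bases. GBP3 alone of the 3 held a GAS-like match (TTCCTTGAA, at -15), which 7.66% of all promoters held, and an AP-1-like match (TGAGTCA, at -23), which 7.71% held and which does not overlap it. The TEAD-like letters CATTCC, found in 14.0% of all promoters, were in none of the 3 windows. These are matches of letters in 1 annotated start region and not sites of binding.

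GBP2 had the largest difference of the family. Its bead intensities were 534, 439 and 588 on the siYAP1&TAZ arrays, against 97.7, 86.7 and 95.1 on the siCon arrays. The lowest siYAP1&TAZ array lay far above the highest siCon array, and the siCon arrays differed little among themselves. Relative to the background level of each array, the probe stood at 9.39, 6.78 and 10.1 times background in siYAP1&TAZ cells and at 1.37, 1.47 and 1.25 times in siCon cells. Only siCon replicate 2 exceeded its detection threshold (81.5), so that GBP2 mRNA in control cells was close to the limit of these arrays. Normalised log2 intensities were 9.25, 9.01 and 9.32 in siYAP1&TAZ cells (9.19 ± 0.164, SD, n = 3) and 6.03, 6.19 and 5.93 in siCon cells (6.05 ± 0.134). The log2 change was 3.14 ± 0.117 (SE), or 8.83-fold against a siCon level near background. The fold varied with the background step, at 6.16-fold with a normexp offset of 50 and 7.04-fold without correction.

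**Figure D1:**
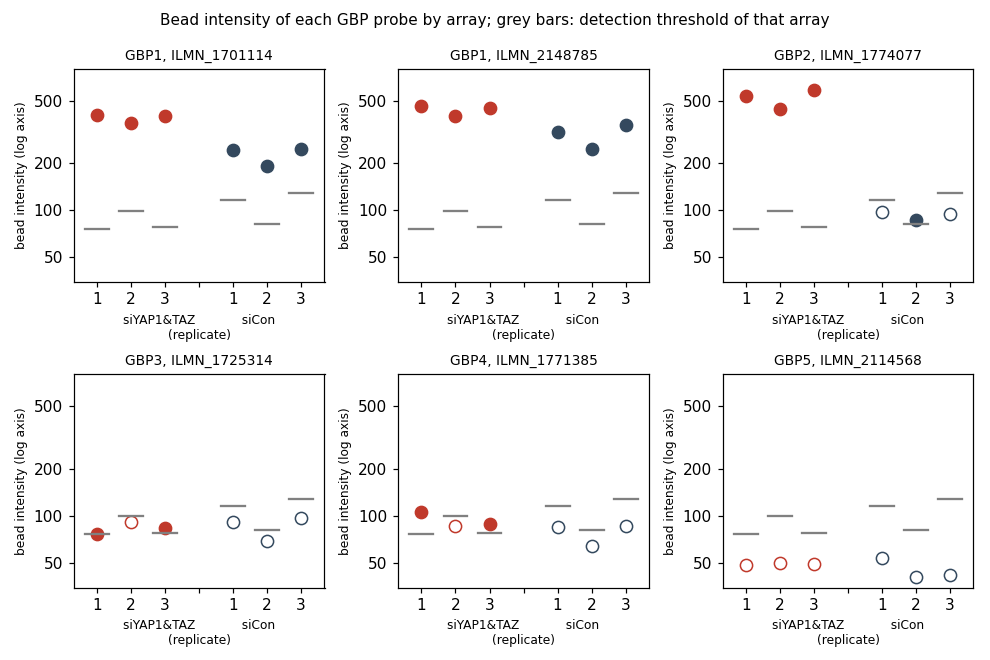
Bead intensity (log axis) of the 6 GBP probes on each array, siYAP1&TAZ replicates in red and siCon replicates in dark blue; grey bars give the detection threshold of that array and open circles lie below it. GBP2 intensities are 439 to 588 on siYAP1&TAZ arrays and 86.7 to 97.7 on siCon arrays, both GBP1 probes are above threshold everywhere, and GBP5 is below it everywhere.

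GBP1, the founding member of the family and the one that starts its coats, was present in both conditions. Both of its probes were above the detection threshold on all 6 arrays. The brighter probe (ILMN_2148785) read 460.4, 396 and 449 in siYAP1&TAZ cells, against 315, 246 and 348 in siCon cells. The other probe (ILMN_1701114) read 407, 359 and 399.6 in siYAP1&TAZ cells, against 241, 191 and 244 in siCon cells. On both probes every siYAP1&TAZ array was higher than every siCon array. Normalised log2 intensity of the brighter probe averaged 8.93 ± 0.0883 in siYAP1&TAZ cells and 7.93 ± 0.170 in siCon cells (SD, n = 3 each). The log2 change was 0.996 ± 0.112 (SE), or 1.99-fold, on the brighter probe and 1.26 ± 0.0986, or 2.39-fold, on the other, in the same direction.

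GBP3 and GBP4, members without a CaaX box, were near background in both conditions and did not enter the fit. GBP4 read 106, 86.8 and 89.1 in siYAP1&TAZ cells, against 84.6, 64.5 and 86.9 in siCon cells. It passed its threshold on siYAP1&TAZ arrays 1 and 3 and on no siCon array, and the highest siCon intensity (86.9) lay just above the lowest siYAP1&TAZ intensity (86.8). After normalisation they no longer overlapped, with means of 6.33 ± 0.288 in siYAP1&TAZ cells and 5.72 ± 0.0601 in siCon cells (SD, n = 3 each). The bound on this difference was 1.002-fold, so that at these intensities almost no size is set for it. GBP3 read 76.6, 91.3 and 83.4 in siYAP1&TAZ cells, against 91.1, 69.3 and 97.0 in siCon cells. It passed its threshold on siYAP1&TAZ arrays 1 and 3 and on no siCon array.

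For GBP3 the direction of the mean difference turned with the scale. Mean intensity was 83.8 ± 7.34 in siYAP1&TAZ cells and 85.8 ± 14.6 in siCon cells, whereas normalised log2 intensity was 6.14 ± 0.0639 in siYAP1&TAZ cells and 5.89 ± 0.0829 in siCon cells (SD, n = 3 each). The background level of the arrays, was 56.8, 64.8 and 58.0 on siYAP1&TAZ arrays and 71.5, 59.0 and 75.9 on siCon arrays. Its part in the GBP3 values was not tested, and no fold is given, since the bound was under 1-fold.

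GBP5, a prenylated member known for a role in inflammasome assembly, did not reach the detection threshold on any array. Its probe read 49.0, 50.01 and 49.2 in siYAP1&TAZ cells and 54.1, 41.1 and 42.0 in siCon cells, below the background level of every array. A difference in GBP5 mRNA was not detectable at these intensities.

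Of the 5 genes, 2 (GBP1 and GBP2) passed the detection filter and entered the fit. GBP2 did so through its 3 siYAP1&TAZ arrays, with only 1 siCon array above threshold. No test is read for either gene. Of the 9718 genes tested, 27.4% were past an adjusted p of 0.05 with a higher level in siYAP1&TAZ cells and 27.4% with a lower level. Normalised values of GBP1, GBP2, GBP3 and GBP4 did not overlap between groups, with all 3 siYAP1&TAZ arrays the higher, which held for 30.9% of genes tested. Since the family was chosen on this contrast, nothing is read from these counts. Over 15 alternative settings for GBP1 and 14 for GBP2, the fold was 1.79 to 2.18 for GBP1 and 6.16 to 9.86 for GBP2.

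**Figure D2:**
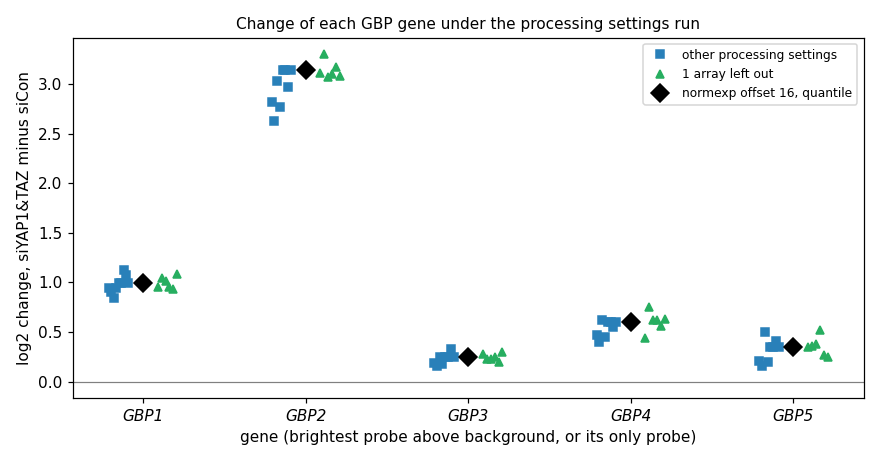
Log2 change (siYAP1&TAZ minus siCon) of each GBP gene; diamonds give the values reported, squares the other processing settings and triangles the values with 1 array left out. GBP2 stays between 2.62 and 3.30 and GBP1 between 0.84 and 1.13, while the points of GBP3, GBP4 and GBP5 come from probes near or below background and set no direction.

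The other GBP loci of the array showed the same division into measurable and unmeasurable. GBP6 (2 probes) and GBP7 were below threshold on all 6 arrays, with intensities of 40.9 to 64.6 and 55.7 to 62.8 in siYAP1&TAZ cells and 44.3 to 66.2 and 53.5 to 83.6 in siCon cells. GBP1P1, a transcribed pseudogene of GBP1 on the far side of GBP6, was above threshold on all 6 arrays. It read 242, 182 and 207 in siYAP1&TAZ cells, against 145, 113 and 145 in siCon cells, with no overlap. Its log2 change was 1.07 ± 0.125 (SE), or 2.10-fold (limma adjusted p = 3.28e-05). Probe sequences were not used here, and how far the GBP1 and GBP1P1 probes read each other's transcript is unknown.

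Genes on either side of the cluster were called higher and lower in shares near those of all genes. Of the 6 named genes with a probe on each side, 11 of 12 were tested, of which 4 rose, 3 fell and 4 did not pass, where 27.4% of all genes rose and 27.4% fell. Their median log2 change was -0.21, against 0.0017 over all genes tested. The gene next to GBP3, KYAT3, a kynurenine aminotransferase, rose 1.44-fold (adjusted p = 0.00154), with 0.04 for its other probe and no call under median scaling (0.0760). RBMXL1, which lies within KYAT3, was at -0.21 (0.158). Past the far end of the cluster, LRRC8B and LRRC8C, subunits of volume-regulated anion channels, fell 2.44-fold and at least 1.54-fold (adjusted p = 1.68e-06 and 0.000113), while LRRC8D of the same family rose 1.22-fold (0.0263). The LRRC8D call was lost in 8 of 15 alternatives, among them those without siYAP1&TAZ replicate 1 (0.0673) or 3 (0.0949) and without siCon replicate 1 (0.0607) or 3 (0.0807). ZNF644, a zinc finger gene, rose 2.20-fold (5.52e-06), with a log2 change of 0.52 for its other probe (0.00512), HS2ST1, a heparan sulphate sulphotransferase, 1.27-fold (0.0109, but 0.295 under median scaling and 0.0884 without the detection filter), and ZNF326 was 1.34-fold lower with overlapping groups (0.0364), a call lost without siYAP1&TAZ replicate 2 (0.0861) or 3 (0.154) and without any 1 siCon replicate (0.0542 to 0.110). With arrays scaled to a common median, which placed the median change of all genes at -0.107, 1 neighbour rose and 3 fell.

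**Figure D3:**
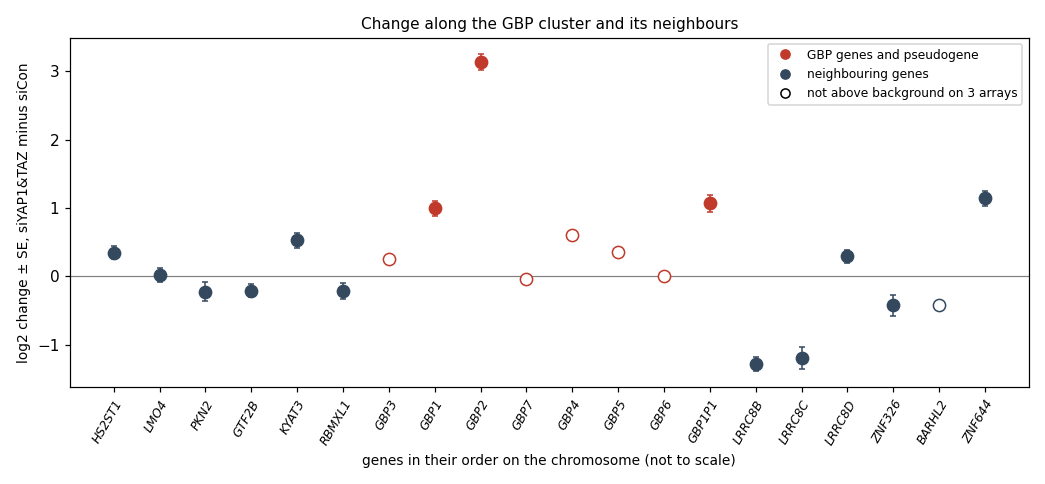
Log2 change (siYAP1&TAZ minus siCon) with its SE for the GBP genes and GBP1P1 (red) and 6 genes on each side (dark blue), in chromosomal order and not to scale; open circles were not above background on 3 arrays. GBP2 stands at 3.14, GBP1 at 0.996 and GBP1P1 at 1.07, between KYAT3 at 0.52 on one side and LRRC8B at -1.29 on the other.

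Genes that lead from interferons to the GBP promoters were mostly higher in siYAP1&TAZ cells, while the interferons themselves were not measurable. Of the 16 tested genes in the list of interferon receptors, kinases, transcription factors and inhibitors, 10 rose, 1 fell and 5 did not pass, with a median log2 change of 0.59 (27.4% of all genes rose and 27.4% fell, with a median of 0.0017). IFNG read 46.1, 47.6 and 42.8 in siYAP1&TAZ cells and 47.6, 42.4 and 47.1 in siCon cells, and IFNG, IFNB1 and IFNL1 were below threshold on all 6 arrays. Both chains of the interferon-gamma receptor rose, IFNGR2 2.15-fold (adjusted p = 9.45e-06) and IFNGR1 1.68-fold (0.000171). IFNAR2, a chain of the type I receptor, rose 1.80-fold (3.01e-05), with 0.26 for its other probe, and IFNAR1 was at 0.24 (0.120).

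The kinases that these receptors carry did not move together. JAK1 rose 1.44-fold (adjusted p = 0.0155), but its call was lost without siCon replicate 2 (log2 change 0.48, adjusted p = 0.0601), without the detection filter (0.0625) and with median scaling (0.34, 0.153). JAK2, above background on 1 siYAP1&TAZ and 2 siCon arrays, was at -0.17 (0.373), and without siCon replicate 3 it was lower at -0.36 (0.0400). TYK2 was at -0.06.

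Among the transcription factors, IRF2, which competes with IRF1 for its sites, rose 2.79-fold (adjusted p = 1.18e-05), with 0.65 for its other probe. IRF1, an activator of GBP promoters, read 8.40, 8.28 and 8.57 in normalised log2 intensity in siYAP1&TAZ cells, against 7.51, 7.80 and 8.11 in siCon cells. It rose 1.53-fold (0.00479), and its siCon arrays spread more widely than those of siYAP1&TAZ cells. IRF9, a subunit of the factor ISGF3, rose 2.26-fold (5.99e-06), and STAT3, a signal transducer of interleukin-6 type cytokines, rose 2.90-fold (2.02e-06). The inhibitors of the pathway did not move together. SOCS1 and SOCS3, which block the receptor kinases, rose 1.72-fold (6.76e-05) and 1.48-fold (log2 change 0.56). PTPN11, a phosphatase of receptor signalling, fell 1.64-fold (0.000476). PTPN2, a phosphatase of the JAK-STAT pathway, was at -0.20 (0.106), with -0.72 for its other probe (8.27e-05), and it fell with the mean of both probes (-0.46, 0.00136). PIAS1 was at -0.02 (0.871), and USP18 was above threshold on 1 array of each group and was not tested.

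Most other tested genes that interferon-gamma induces rose. Of 26 tested by limma, 21 rose, 0 fell (1 at an unadjusted p under 0.05) and 5 did not pass, against 27.4% of all genes in each direction. Their median log2 change was 0.71. Normalised siYAP1&TAZ values lay wholly above normalised siCon values for 20, as they did for 30.9% of all genes. On the scale of bead intensity the groups overlapped for some of these, among them HLA-E, TAP1, PSMB8 and TRIM21. CD74, the invariant chain of MHC class II, rose 5.98-fold (adjusted p = 2.36e-08), CASP1, the protease of canonical inflammasomes, 4.14-fold (7.70e-08), HLA-DRA, an MHC class II chain, 3.45-fold (1.68e-07) and HLA-F, an MHC class I molecule, 3.23-fold (5.71e-07). Log2 changes on their other probes were 3.05 and 2.35 for CD74, 1.59 for CASP1, 1.81 for HLA-DRA and 1.05 for HLA-F, against 2.58, 2.05, 1.79 and 1.69 on the probes used. The 7 members with a probe that were not tested included the chemokines CXCL9, CXCL10 and CXCL11 and the enzyme IDO1, all below threshold on all 6 arrays. TAP2, WARS1, LAP3, NMI and ICAM1 were tested and did not pass, with log2 changes from -0.30 to 0.28. TAP2 was past the threshold as lower in 7 of 15 alternatives, such as without siYAP1&TAZ replicate 2 (adjusted p = 0.0283) or siCon replicate 3 (0.0422) and under median scaling (0.0484), where 17 rose. NMI rose without siYAP1&TAZ replicate 1 (0.0341).

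**Figure D4:**
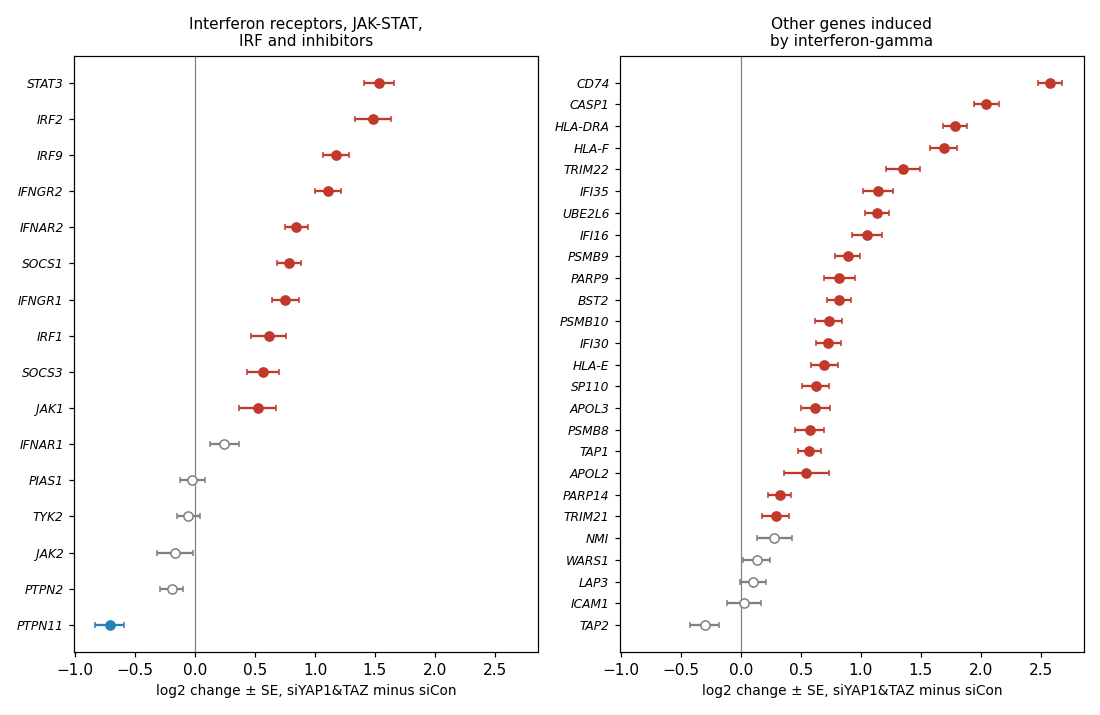
Log2 change ± SE (siYAP1&TAZ minus siCon) of the tested genes of both interferon lists; red circles rose, blue fell and open grey circles did not pass an adjusted p of 0.05. In the signalling list values run from -0.71 (PTPN11) to 1.53 (STAT3), and in the induced list from -0.30 (TAP2) to 2.58 (CD74).

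Partners of the family in inflammasomes and at pathogen membranes were higher in 7 of 11 tested cases and lower in 1, against 27.4% of all genes in each direction. Of the 7, CASP1, APOL3 and TRIM21 are also in the list of genes that interferon-gamma induces and were counted there. TRIM21 was 1.22-fold higher (adjusted p = 0.0469, limma), a call lost under median scaling (0.580). Their median log2 change was 0.41, against 0.0017 over all genes. Beside CASP1, PYCARD, the adaptor that recruits it, rose 2.69-fold (adjusted p = 1.07e-06), PIM1, a kinase that phosphorylates GBP1, 1.70-fold (0.000287), and APOL3, which permeabilises GBP-coated bacteria, at least 1.24-fold (0.00148). CASP4, the receptor for lipopolysaccharide on the coat, was 1.32-fold higher (0.0128), a call lost without siCon replicate 2 (log2 change 0.37, adjusted p = 0.0510) or 3 (0.33, 0.0535) and under median scaling (0.18, 0.493), with 0.01 for its other probe. NLRP3, an inflammasome sensor, fell 1.65-fold (9.80e-05), and its other probes gave -0.98 and -0.21. GSDMD and IL18 were at 0.11 and -0.06 and did not pass, and AIM2, NLRC4 and CASP5 were below threshold on all 6 arrays. Median scaling left 4 higher and 1 lower.

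Of 9 tested genes in the list of protein prenylation and CaaX processing, 3 were higher and 4 lower, with a median log2 change of 0.02. Over all genes 27.4% were higher and 27.4% lower, so these few calls say little about the genes as a list. GGPS1, which makes the geranylgeranyl donor, rose 1.66-fold (adjusted p = 0.000125), and FDPS, which makes the farnesyl donor, fell 1.41-fold (0.00458, or 0.0587 with array background as a covariate). FNTA, the subunit shared by the CaaX transferases, was 1.31-fold higher (0.0183), and FNTB, the subunit specific to farnesylation, 1.29-fold lower (0.0144). PGGT1B, its geranylgeranylation counterpart, was 1.31-fold higher (0.0126), with 0.04 for its other probe. ICMT, which methylates the processed end, fell 1.41-fold (0.00197). RABGGTB, also in the list, was 1.34-fold lower (limma adjusted p = 0.00417), with a log2 change of -0.37 for its other probe (0.00760). The calls of FNTA, FNTB and PGGT1B were lost under median scaling (0.304, 0.0526 and 0.112), and without siYAP1&TAZ replicate 3 (0.0762, 0.0643 and 0.0554). FNTA was also not called without siYAP1&TAZ replicate 2 (0.0536), siCon replicate 1 (0.0508) or siCon replicate 2 (0.0652), nor FNTB without siCon replicate 1 (0.0555). Without siYAP1&TAZ replicate 3, 4 of 9 were called, 1 higher and 3 lower.

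Among other GTPases of the dynamin superfamily, 1 of 7 tested rose, 2 fell and 4 did not pass, with a median log2 change of 0.01, where 27.4% of all genes rose and 27.4% fell. ATL1, an atlastin that fuses membranes of the endoplasmic reticulum and a close relative of the GBPs, rose 2.08-fold (adjusted p = 1.22e-05), with 0.79 to 0.90 for its other probes. Its paralogue ATL3 fell 1.56-fold (0.000264), as did OPA1, which fuses mitochondrial inner membranes, by 1.46-fold (0.00253). DNM2 and DNM1L did not pass, at 0.12 and -0.07. Their other probes gave -0.49 (0.00278) for DNM2, and -0.44 (0.00360) and -0.09 (0.507) for DNM1L. With the mean of probes the median of the list was -0.19, with the same counts called. The interferon-inducible MX1 was above threshold on 2 siYAP1&TAZ arrays and no siCon array, with a bound of 1.04-fold, and MX2 was below threshold throughout.

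The genes whose values over the 6 arrays lay closest to those of each GBP were found by the root-mean-square difference of log2 values centred on each gene's mean, over genes with a symbol other than a LOC number. For GBP2 these were ZNF467, H4C8, CASTOR1, CTSO and CYP1B1, at differences of 0.0968 to 0.218 and log2 changes of 2.78 to 3.41. ZNF467, the closest, was above threshold on no siCon array, so its change of 3.15 is against a siCon level below threshold. For GBP1 they were RELB, OPTN, LINC01615, IL32 and CAPG, at differences of 0.0683 to 0.0804 and log2 changes of 0.93 to 1.05. With only 2 conditions, this ranking mostly collects genes with a change of the same size.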

How the data were processed

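RNA of 3 siYAP1&TAZ and 3 siCon samples was hybridised to Illumina bead arrays. The deposited table of intensities holds 1 linear value per probe and array with no detection p-values or control probes. The authors' deposited log2 values lay within 0.1 of quantile-normalised log2 intensities for 99.9% of values and served as an alternative. Per the submitters' processing notes the authors used BeadStudio, whose settings the sources used here do not give. A neqc correction needs control probes or detection p-values, so normexp (saddle, offset 16) was fitted to each array's probes, with quantile normalisation and log2, in R 4.3.3 and limma 3.58.1. The background level of an array is the mode of its log2 intensities (density bandwidth 0.05), and the detection threshold is the 0.05 upper point of a symmetric distribution built from the values under that mode. Probes above threshold on at least 3 of 6 arrays (15899) were tested with lmFit and eBayes without covariates, two-sided, Benjamini-Hochberg over all of them, threshold 0.05, and the brightest tested probe stood for a gene. A gene below threshold on all arrays of a group has a bound, the brighter group's mean over, per array of the other, the higher of its own value and the lowest value above threshold.

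Symbols came from the platform annotation, updated by Entrez identifier (30074 of 30113 probes with 1 symbol matched), and promoters from RefSeq (GRCh38.p14). List genes with no probe of a single symbol were left out. Members and lists were chosen with earlier results of these data known. Named were all probes of the members, the siRNA targets, up to 4 genes per list and direction, receptors, kinases and IRF genes of the pathway in any case, 6 neighbours on each side of the cluster and the 5 genes most like GBP1 and GBP2. Further genes below threshold or short of it, and CASP4 and TRIM21, were named after their values were seen. Precision is limited by the number of arrays and, for dim probes, by signal near background. All columns of both tables were used. Alternatives changed the background step, normalisation, detection filter, probe summary, background level as a covariate, replicate number as a block and each replicate left out. Same-numbered samples did not deviate together, and the labels do not say what the numbers mark, so the main fit paired no samples. Whether same-numbered samples shared a culture or a day cannot be told from these values. The fit was tested on simulated data.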

Additional observations from a re-analysis of the deposited data

How the results depend on the processing

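The GBP2 log2 change (3.14) was 2.82 without background correction, 2.62 with a normexp offset of 50, 2.76 in the authors' deposited values and 2.97 with array background as a covariate. The GBP1 change (0.996) was 0.84 when the array medians were equalised. The GBP3 change (0.25) was 0.16 with offset 50 and 0.33 with the background covariate, values that set no direction for a probe this near background. GBP2, GBP3, GBP4 and GBP5 have no value with a filter of all 6 arrays above background. Leaving out 1 array gave 0.93 to 1.09 for GBP1 and 3.07 to 3.30 for GBP2. It gave 10 to 12 called genes for signalling, 19 to 21 for induced genes and 3 for GTPases. For prenylation it gave 4 to 7, for inflammasome partners 6 to 8 and for neighbours 5 to 7. Over all 9718 genes, 2319 to 2586 rose and 2319 to 2517 fell with 1 array left out. Median scaling called 4 prenylation genes, 5 inflammasome partners and 4 neighbours, and over all genes 1439 rose and 2475 fell, against 2658 and 2666 with quantile normalisation and the settings of the report. Without a detection filter 4 of 10 prenylation genes, 5 of 15 GTPases and 4 of 12 neighbours were called. In that setting 2158 of 20046 genes rose and 2064 fell. The background covariate left 4 of 9 prenylation genes, where 2122 of all 9718 genes rose and 2225 fell. The replicate block left the GBP1 and GBP2 changes at 0.996 and 3.14, with 11 signalling and 20 induced genes called. Over all genes 2524 were higher and 2518 lower. Among the genes named, the block ended only the calls of LRRC8D and TRIM21 (adjusted p = 0.0572 and 0.0816, limma). Same-numbered samples correlated at -0.177, -0.134 and -0.0153 in their deviations from group means. Of 57 called genes of the lists and targets, 41 were called in every alternative that gave a value, and none reversed. The cause of these shifts was not tested. GBP3, GBP4 and GBP5 are limited by signal near background.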
